A study of Drosophila melanogaster with 6 samples.

Results

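The C2 and C3 libraries are 2 of 6 whole-larva RNA libraries of Drosophila melanogaster, and each came from a strain that expressed 1 gene of a newt throughout the body. The pair was chosen from the measured values. C2 held much RNA of the salivary glue genes, larval cuticle and larval muscle, C3 held RNA of most genes of the Eig71E cluster, and both held almost no testis RNA. The ratios of C2 to C3 given here therefore describe the pair, with no test and no p-value. There was 1 library per genotype, so no difference had a replicate check, and every interval and floor covers counting error only.

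The genotypes were Tublin Gal4; UAS-C2 and Tublin Gal4; UAS-C3 in the labels' spelling, where Gal4 from the broadly active tubulin promoter switches on the UAS transgene. The other libraries were Tublin Gal4; UAS-C1, UAS-C4 and UAS-C5, and a Tublin Gal4/S-T control titled as wild type. The labels describe all 6 as larvae of the 3rd instar taken on day 4 after egg laying, with no number of animals, no sex and no finer age. The transgene, any difference in age within the instar and the particular batch of larvae cannot be told apart in this pair.

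In the last larval instar the salivary gland makes glue, a mixture of mucin-like and small secreted proteins that later fixes the pupal case to its support. The steroid hormone 20-hydroxyecdysone controls this programme: it first permits glue gene transcription and, at the large pulse that ends larval life, represses the glue genes and switches on early puff genes such as Eip74EF, Eip75B and br. These in turn activate late genes, of which the Eig71E cluster of small secreted proteins in the salivary gland is a classic example. The feeding larva also builds body-wall muscle and soft cuticle, and at pupariation the cuticle is tanned by enzymes that act on dopamine and its derivatives.

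Library totals ran from 75131812 counts in C2 to 86975388 in C1, with 76151038 in C3. Counts were given per 1000000 counts (CPM) and scaled by TMM factors of 0.890 for C2 and 0.999 for C3. A total of 13623 genes in C2 and 13822 in C3 had at least 1 count, and the top 10 genes took 19.0% of all counts in C2 and 13.7% in C3. The floor of 3 counts was 0.0449 CPM in C2 and 0.0395 CPM in C3. Plain CPM without TMM factors would lower every log2 ratio of C2 to C3 by 0.17, and every ratio below is relative to the TMM scale.

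Male RNA was low in both members of the pair. Of 12 genes of male soma and the Y chromosome, 9 stood at 0 counts in C2 and in C3. The dosage compensation RNA roX1 stood at 16.2 CPM in C2 and 14.4 in C3, against 208 in the control and 323 in C4. For betaTub85D, a tubulin gene of the testis, the levels were 0.449 CPM in C2 and 0.922 in C3, against 244 (control) and 535 (C4). Neither library therefore carried the testis signal of the control or C4, and the 30 genes of the male germline list summed to 26.9 CPM in C2 and 24.1 in C3.

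A mean of 1 CPM or more over the pair was reached by 9998 genes, of which 2061 (20.6%) were called apart, meaning a fold of at least 2 with an exact 95% interval of the ratio that excluded 1. There were 1181 genes (11.8%) higher in C2 and 880 (8.8%) higher in C3. At least 8-fold differences were found for 490 genes (4.9%), 348 (3.48%) higher in C2 and 142 (1.42%) higher in C3. The median log2 ratio over all measured genes was 0.00, with quartiles of -0.34 and 0.35. Among the pairs that can be made of C1, C2, C3 and C5, the share called was 3.7% between C1 and C5, 10.1% between C2 and C5, 10.7% between C1 and C3, 12.2% between C1 and C2 and 14.1% between C3 and C5. C2 and C3 thus stood farther apart than any other pair of these 4 libraries, a description of a pair picked for its contrast. Against the control, which held testis RNA, 29.2% of genes were called for C2 and 27.8% for C3, and against C4 32.9% and 33.4%.

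**Figure D1:**
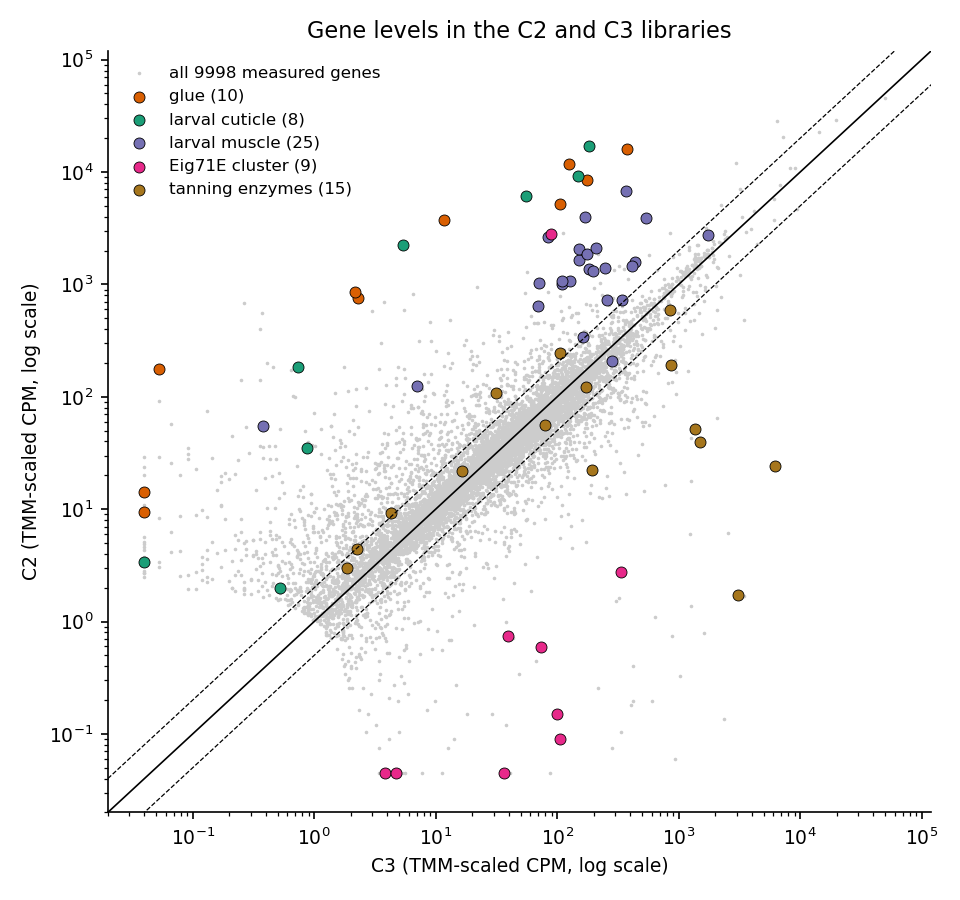
TMM-scaled CPM of each measured gene in C3 (horizontal, log scale) and C2 (vertical, log scale), with values under 3 counts drawn at that floor. The solid line marks equal levels and the dashed lines a 2-fold difference. All 10 glue genes, all 8 measured larval cuticle genes and Eig71Ee lie above the upper dashed line, and 8 of 9 measured Eig71E genes lie far below the lower one.

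The glue genes were high in C2 and low in C3. Sgs3, a mucin-like glue protein on chromosome 3L (11512221 to 11513402, Release 6), stood at 11786 CPM in C2 and 126 in C3, with 5564 in the control, 5963 in C1, 5162 in C4 and 11674 in C5. C3 alone was far below the rest, and C2 and C5 were nearly level. The log2 ratio of C2 to C3 was 6.55 (exact 95% interval 6.52 to 6.58). Sgs4, a mucin-like glue protein on X, stood at 3738 CPM in C2, 11.7 in C3 and between 1115 (C4) and 2629 (C5) in the others, a log2 ratio of 8.32. Sgs1, a large glue mucin, stood at 752 CPM in C2, 2.31 in C3 and 926 in C5. Of 10 measured glue and new-glue genes all 10 were called higher in C2, with a median log2 ratio of 8.11 and a range from 5.40 (Sgs7) to 11.72 (ng3), but these genes were used to choose the pair. By RPKM, which is set per length, Sgs7 was the most abundant gene of C2 at 39512 and stood at 1034 in C3.

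The new-glue genes at 3C on X, known to be active in the gland before the main wave of Sgs transcription, differed from the Sgs genes in where the other libraries stood. ng3 stood at 177 CPM in C2 and 0.0527 in C3, with 2.41 in the control, 28.1 in C1, 11.6 in C4 and 12.03 in C5. ng1 stood at 9.47 CPM in C2 and no more than 0.0800 in any other library, and at 0 counts in C3. ng2 stood at 14.1 CPM in C2, 0.880 in C1 and 0.315 in C4, and at 0.0543 or less in the control, C3 and C5. The ng RNAs were thus highest in C2. For ng1 and ng2 all other libraries were low, whereas for ng3 the control, C1, C4 and C5 lay between C2 and C3. Sgs RNA was plentiful in all libraries but C3.

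The 71E cluster ran the other way, apart from 1 gene. Eig71Ea (3L, 15649126 to 15649661), which encodes a small secreted peptide, stood at 2.79 CPM in C2 and 336 in C3, with 1.64 in the control, 4.06 in C1, 392 in C4 and 3.43 in C5. Eig71Eb stood at 0.0899 CPM in C2 and 105 in C3, with 133 in C4 and at most 0.239 in the other 3. C3 and C4 were thus high together for both genes, and the other 4 libraries held at most 4.06 CPM of Eig71Ea. Eig71Eh and Eig71Ei had 0 counts in C2, the control, C1 and C5, and stood at 3.79 and 4.68 CPM in C3. Against the floor of 3 counts in C2 they were at least 84.4-fold and 104-fold higher in C3. Of 11 Eig71E genes 9 were measured, of which 8 were called higher in C3 and 1 higher in C2, beside 8.8% and 11.8% of all genes. The cluster was among the values that chose the pair. Eig71Ej and Eig71Ek, below 1 CPM on average, stood at 0.0791 and 0.211 CPM in C3 and at 0 counts in C2.

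Eig71Ee (3L, in the middle of the same cluster), a mucin-like protein found in the larval clot, went with the glue genes. It stood at 2790 CPM in C2 and 88.7 in C3, with 5477 in the control, 2314 in C1, 1596 in C4 and 4001 in C5, a log2 ratio of C2 to C3 of 4.98. C3 was the lowest of the 6 libraries and the control the highest. Within about 14 kb the direction of the difference thus alternated: CG43083 (23.3 CPM in C2, 3.20 in C3) and CG43084 (15.5 and 3.90) were also higher in C2, and their immediate neighbours Eig71Ea, Eig71Eb and Eig71Ec were higher in C3. The genes here lie close to one another, and how the counting treated reads from overlapping ends, and whether it used strand, is not given in the sources used here.

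**Figure D2:**
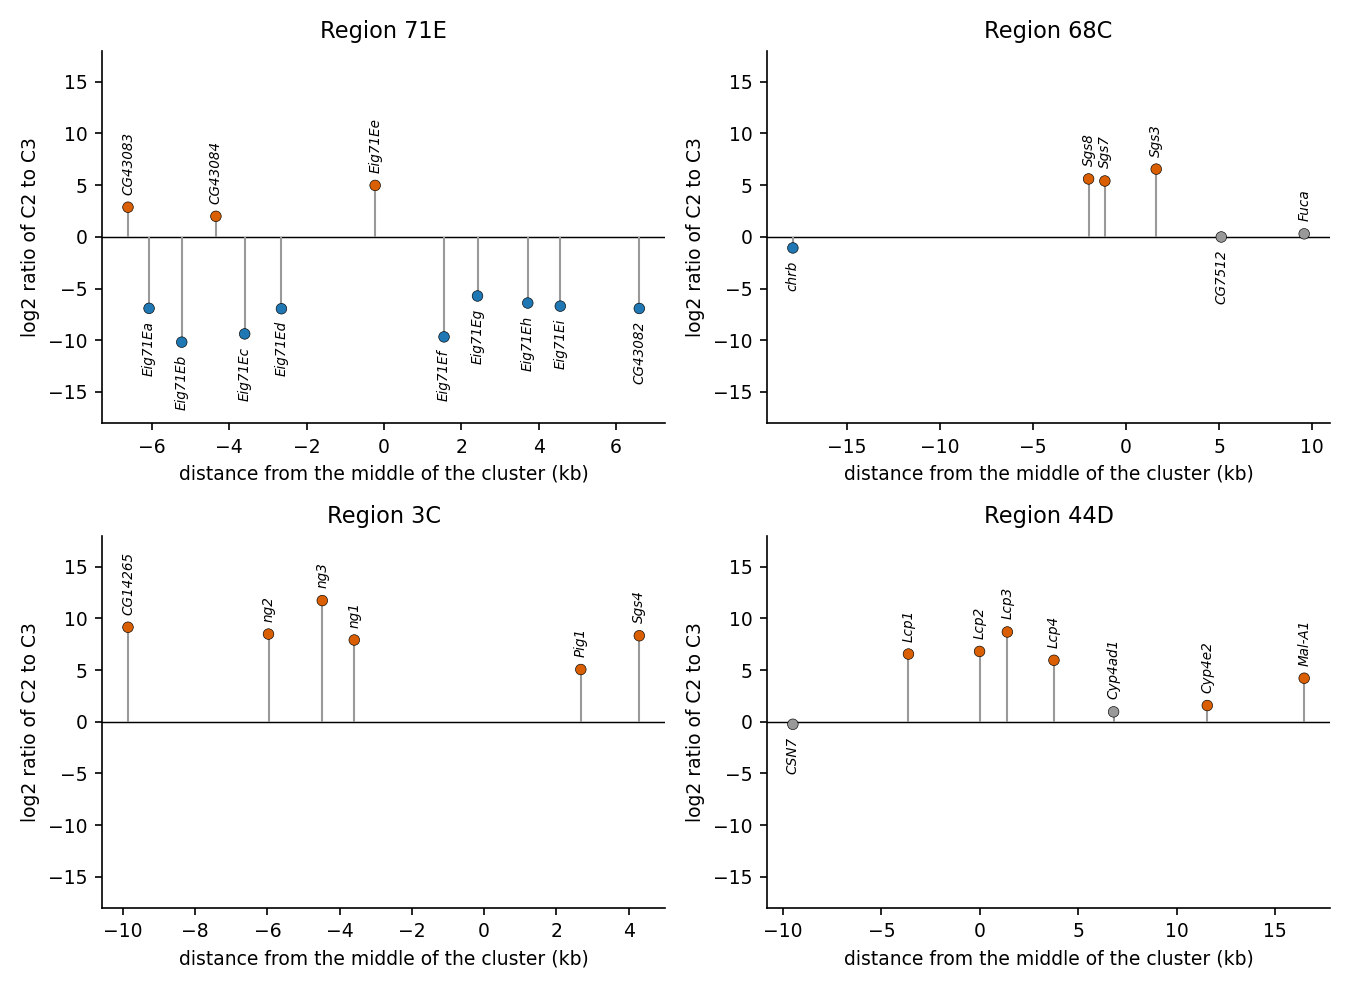
Log2 ratio of C2 to C3 of each measured gene by distance in kb from the middle of 4 clusters: 71E (Eig71E genes), 68C (Sgs3, Sgs7 and Sgs8), 3C (ng genes and Sgs4) and 44D (Lcp1 to Lcp4). Orange points were called higher in C2, blue points higher in C3 and grey points neither. Left out are dnc, the long gene that spans 3C, and the outlying genes comm3 at 71E and Mob2 at 68C. Genes higher in C2 and higher in C3 alternate at 71E, while at 68C the calls higher in C2 are limited to the 3 Sgs genes.

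A list that joins salivary gland factors with genes of the general secretory pathway was mostly within 2-fold. Many genes within 2-fold belonged to the secretory pathway, such as Calr (1271 CPM in C2, 1337 in C3) and Pdi (1158 and 1717), so they do not describe the gland alone. Of 25 genes of the gland and secretory pathway list, 5 (20%) were higher in C2, 1 (4%) was higher in C3 and 19 lay within 2-fold, with a median log2 ratio of -0.09, beside 11.8% and 8.8% of all genes. The gland transcription factor genes sage (118 and 20.7 CPM) and sens (10.8 and 2.58) were higher in C2, whereas fkh, another such factor, stood at 53.0 CPM in C2 and 60.96 in C3, and CrebA at 87.5 and 164, both within 2-fold. PH4alphaSG1 and PH4alphaSG2, prolyl hydroxylases of the gland, were higher in C2 as well: PH4alphaSG2 stood at 9.77 CPM in C2 and 0.119 in C3, and PH4alphaSG1 at 5.71 CPM in C2 and 0 counts in C3, at least 144-fold higher. Papss, which makes the sulfate donor, was the fifth, and Sec61gamma, a subunit of the protein translocation channel, was the gene higher in C3. In whole larvae, fewer cells of a type and less RNA per cell cannot be told apart, for the gland or for any tissue below.

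Larval cuticle genes were higher in C2 throughout. Lcp1, a larval cuticle protein at 44D on 2R, stood at 17190 CPM in C2 and 184 in C3, with 4891 in the control, 2377 in C1, 4906 in C4 and 6499 in C5. Lcp3 stood at 2222 CPM in C2 and 5.42 in C3, with 403, 60.8, 287 and 654 in the control, C1, C4 and C5. In both cases C2 was the highest and C3 the lowest of the 6 libraries. All 8 measured members of the larval cuticle list were called higher in C2 (median log2 ratio 6.48), and C2 was the highest of 6 for 8 of them and C3 the lowest for 7; 7 of 15 listed genes were not measured, and this list too was used to choose the pair. The near-identical copies Lcp65Ab1 and Lcp65Ab2 were listed at 0 in all 6 libraries, so their values are uncertain.

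The wider Cpr family of chitin-binding cuticle proteins, picked by symbol after its values were seen, was mixed. Of 31 measured Cpr genes 21 were higher in C2 and 5 higher in C3, beside 11.8% and 8.8% of all genes, with a median log2 ratio of 2.48. Cpr65Aw stood at 28.9 CPM in C2 and at no more than 0.414 in any other library, while Cpr47Ee stood at 1.59 CPM in C2, 35.9 in C3 and 2.93 to 10.6 in the rest. Cpr97Ea, Cpr49Ag, Cpr66Cb and Cpr66D were the others higher in C3. Of the pupal and later cuticle genes, Pcp (358 against 140 CPM), Edg91 and Ccp84Ad were higher in C2, Ccp84Ab was higher in C3, and 9 of 13 were not measured. The only 2 Tweedle genes measured of 26, TwdlE and TwdlT, were both higher in C3, at 13.5 against 5.50 and 10.1 against 4.70 CPM. Of 27 genes that make, modify or degrade chitin, 8 (29.6%) were higher in C2 and 6 (22.2%) in C3, beside 11.8% and 8.8% of all genes, among them obst-E, which shapes the larval body (log2 ratio 6.19), and the chitinase gene Cht4 (-5.68).

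Tanning enzymes included some of the largest differences towards C3. The gene e (ebony), whose enzyme joins beta-alanine to dopamine, stood at 1.74 CPM in C2 and 3075 in C3, with 486 in the control, 1017 in C1, 238 in C4 and 17.0 in C5. Each of the 6 libraries stood apart from the next, in the order C2, C5, C4, control, C1 and C3. The gene ple, which encodes tyrosine hydroxylase, the first step to dopamine, stood at 24.2 CPM in C2 and 6249 in C3, with 1385 in the control, 3584 in C1, 811 in C4 and 647 in C5. The gene b (black), whose product makes beta-alanine from aspartate, stood at 51.7 CPM in C2 and 1372 in C3. The log2 ratios were -10.79 for e, -8.01 for ple and -4.73 for b.

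Of 15 measured tanning genes 6 were higher in C3 (e, ple, yellow-c, b, speck and Pu), 3 were higher in C2 (t, Hn and yellow-e) and 6 were within 2-fold, with a median log2 ratio of -0.50, beside 8.8% of all genes higher in C3 and 11.8% higher in C2. Ddc, the decarboxylase that turns DOPA into dopamine, was among the latter at 591 CPM in C2 and 842 in C3. The gene t (tan), whose enzyme splits the product of ebony, stood at 9.20 CPM in C2 and 4.26 in C3, against the direction of e. The gene speck, a dopamine N-acetyltransferase, stood at 22.1 CPM in C2, 193 in C3 and 475 in C4, and at most 18.1 in the control, C1 and C5, so that C3 and C4 were high together.

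**Figure D3:**
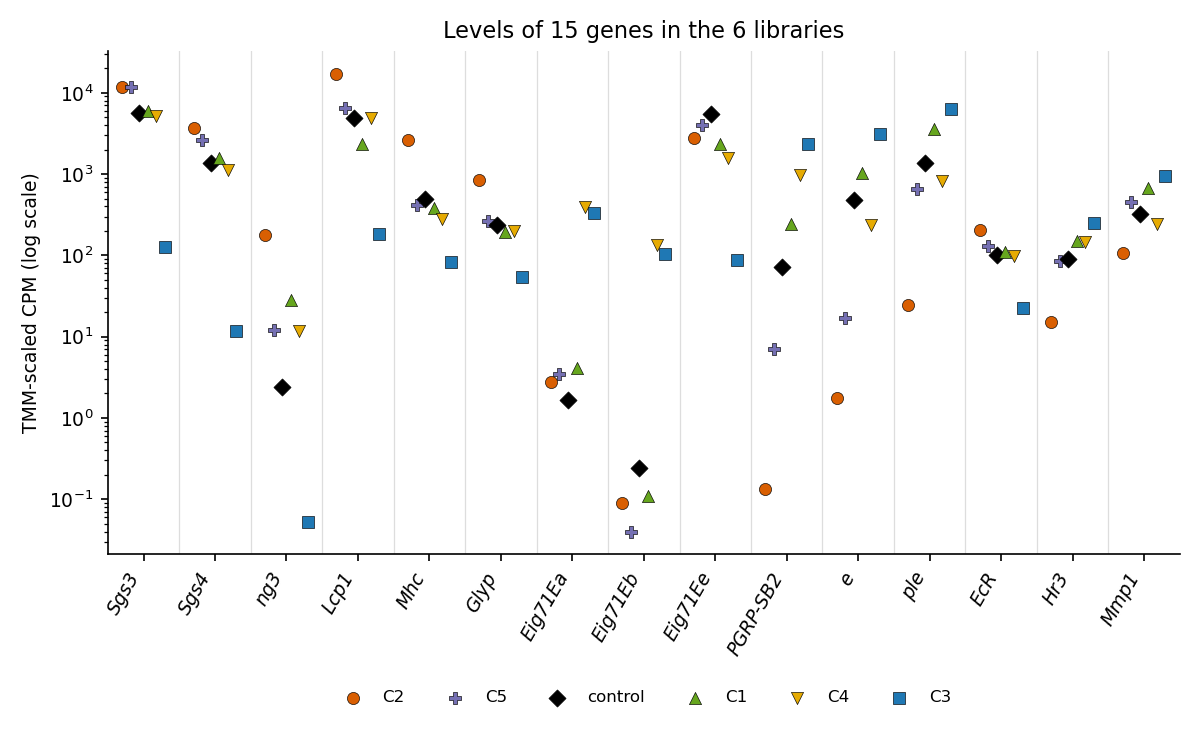
TMM-scaled CPM (log scale) of 15 genes in the 6 libraries, 1 marker per library, drawn in the order C2, C5, control, C1, C4 and C3 from left to right within each gene. C2 and C3 take opposite ends for Sgs3, Sgs4, ng3, Lcp1, Mhc, Glyp, PGRP-SB2, e, ple, EcR, Hr3 and Mmp1, whereas C4 stands beside C3 for Eig71Ea and Eig71Eb, and the control is highest for Eig71Ee.

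Genes of the ecdysone response differed in both directions. EcR, which encodes the ecdysone receptor, stood at 204 CPM in C2 and 22.6 in C3, with 99.7 in the control, 111 in C1, 97.7 in C4 and 129 in C5. C2 was thus the highest and C3 the lowest, with the other 4 close together. Hr3, an orphan nuclear receptor of the early-late class, stood at 15.3 CPM in C2 and 250 in C3, with 91.0 in the control, 150 in C1, 148 in C4 and 84.7 in C5. Here the order was turned round, and again the other 4 libraries lay between. The log2 ratios were 3.17 for EcR and -4.03 for Hr3.

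Of 25 ecdysone response genes all were measured, 11 were higher in C3, 5 higher in C2 and 9 within 2-fold, with a median log2 ratio of -0.37. The shares were 44% and 20%, beside 8.8% and 11.8% of all genes. The nuclear receptor genes Eip78C (67.8 CPM in C2, 621 in C3), Hr4 (63.2 and 333) and Hr39 (67.01 and 141), and Eip93F (8.12 and 79.9), which encodes a transcription factor of the late response, were higher in C3. So were the ecdysone-inducible membrane or secreted protein genes ImpE1, ImpE2, ImpE3 and ImpL1. Beside EcR, the genes higher in C2 were Cyp18a1, whose enzyme inactivates ecdysteroids (10.4 and 2.12 CPM), ftz-f1 (7.41 and 2.40), Eip75B (312 and 128) and Cth (324 and 104). C5 held the most Cyp18a1 RNA of the 6, at 51.9 CPM. Among 16 measured genes of ecdysteroid synthesis and transport, 3 were higher in C2, of which shd, encoding the enzyme that makes 20-hydroxyecdysone from ecdysone in peripheral tissues, stood at 71.6 CPM in C2, 7.52 in C3 and 27.6 to 66.8 elsewhere. The other 13 lay within 2-fold.

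Isoform shares differed within some of these genes, in Eip74EF with the gene total within 2-fold. The deposited tables give estimated counts per transcript. Isoforms were named by matching the length implied by count and RPKM to annotated transcripts (102 of 106 isoforms of 22 genes). Of these, 84 matched 1 name and the rest more than 1. Eip74EF has a distal and an internal promoter, known for proteins called E74A and E74B. E74B is known to respond to low and E74A to high hormone levels in cultured organs. The distal start site of Eip74EF-RA, RC and RE (3L, 17619325) lies 42.7 kb upstream of the start of RB. Summed over isoforms, the gene was within 2-fold, and 3 distal transcripts of equal length were given equal estimates.

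Eip74EF-RB, an internal isoform, made up 64.1% of the gene's count in C2 and 3.70% in C3, with 14.5% in the control, 14.95% in C1, 48.6% in C4 and 20.6% in C5. Its level was 208 CPM in C2 and 14.9 in C3, 14.0-fold higher in C2. Eip74EF-RD, which starts close to RB, did not go with it. RD stood at 23.55 CPM in C2 and 37.87 in C3, and its share was 9.43% in C3. The distal isoforms together made up 28.7% in C2 and 86.9% in C3, with 81.0% in the control, 80.5% in C1, 40.1% in C4 and 75.5% in C5, and their summed level was 93.2 CPM in C2 and 349 in C3. C3 thus stood at one end with the control, C1 and C5 near it, and C4, which shared Eig71E RNA with C3, stood near C2 in this share.

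EcR isoforms differed in share as well as in total. EcR-RC made up 31.1% of the gene's count in C2 and 6.98% in C3, and EcR-RB 46.8% and 17.3%, while EcR-RG made up 6.35% in C2 and 30.8% in C3, and EcR-RD 2.84% and 23.9%. In level, EcR-RC stood at 63.4 CPM in C2 and 1.58 in C3, whereas EcR-RD stood at 5.79 and 5.40. In the control, C1, C4 and C5 the share of EcR-RB lay between 47.3% and 57.5%. Of the 22 genes, 6 had an isoform whose share differed by at least 10 points between C2 and C3: Eip74EF, EcR, Eip75B, Hr39, Blimp-1 and ftz-f1. No such count was made for genes outside the ecdysone list, so this count says nothing particular about ecdysone genes. The ftz-f1 shares rested on 182 counts in C3. Of these genes, all but Eip74EF were also called by their gene total. The shares are the authors' estimates over reads that isoforms share, and they carry no error here.

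**Figure D4:**
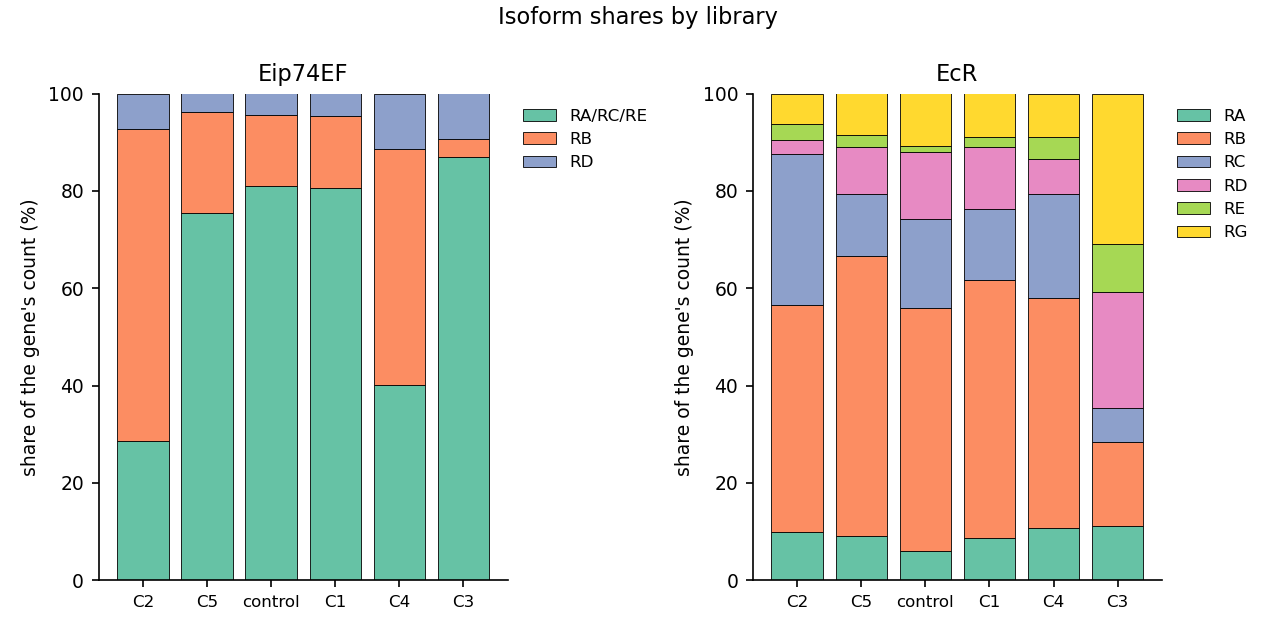
Share of each isoform in the estimated count of Eip74EF (left) and EcR (right), in percent, with 1 stacked bar per library. Eip74EF-RB, an internal isoform, takes 64.1% in C2, 48.6% in C4 and 3.70% in C3, and EcR-RB and EcR-RC together fill most of the bar in C2 and a small part of it in C3.

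Larval muscle genes were higher in C2, and they too were used to choose the pair. Mhc, the muscle myosin heavy chain, stood at 2643 CPM in C2 and 83.9 in C3, with 496 in the control, 387 in C1, 284 in C4 and 411 in C5. The other 4 libraries stood close to one another, with C2 above and C3 below. Of 25 genes 23 (92%) were higher in C2 and none in C3, beside 11.8% and 8.8% of all genes. The median log2 ratio was 3.20, and 2 genes (Strn-Mlck and Zasp66) were within 2-fold. C2 was the highest of 6 libraries for 24 of the 25 genes and C3 the lowest for 22. Over the 25 genes the log2 ratio ran from -0.44 for Strn-Mlck to 7.16 for TpnC47D, a troponin C. Of 4 measured muscle genes best known from adult muscle, 3 were higher in C2 (median log2 ratio 2.16). The other, the actin gene Act88F, was higher in C3, at 0.569 CPM in C2 and 9.29 in C3.

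Glycolysis genes, which the choice of the pair did not name, were also higher in C2. Glyp, glycogen phosphorylase, stood at 837 CPM in C2 and 54.1 in C3, with 236 in the control, 193 in C1, 201 in C4 and 266 in C5. Of 21 genes 15 were higher in C2 and 2 in C3, beside 11.8% and 8.8% of all genes, with a median log2 ratio of 1.82. The 2 were Treh, trehalase (130 CPM in C2, 265 in C3), and Hex-C, a hexokinase (0.764 and 1.54). C2 was the highest of 6 for 19 of the 21. In contrast none of 19 genes of mitochondrial respiration was called in either direction (log2 ratios from -0.45 to 0.84), although 17 had a ratio above 1. The part of muscle RNA in the glycolysis values was not tested.

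Blood cell genes were higher in C2 or level. Of 18 genes 10 were higher in C2 and none in C3, beside 11.8% and 8.8% of all genes, with a median log2 ratio of 1.48. Hml, hemolectin of plasmatocytes, stood at 92.3 CPM in C2 and 5.23 in C3, with 16.7 in the control, 42.7 in C1, 28.4 in C4 and 70.7 in C5. PPO1 and PPO2, the prophenoloxidases of crystal cells, stood at 70.96 and 135 CPM in C2 and 7.92 and 16.9 in C3. The gene atilla, a marker of lamellocytes, stood at 27.9 CPM in C2, 0.435 in C3 and 3.04 to 6.24 in the others.

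Fat body storage proteins were split. Lsp1beta, a subunit of larval serum protein 1, stood at 28378 CPM in C2 and 6483 in C3, and Lsp1alpha at 12025 and 2945, with log2 ratios of 2.13 and 2.03. Lsp1gamma was also higher in C2, with 20519 and 7189 CPM. Lsp2 (28743 and 19811 CPM) and Fbp1, the receptor for serum protein uptake (45538 and 49934), were within 2-fold, so the 2 serum proteins differed unequally. Apoltp, a lipid transfer particle protein, was the 1 gene of the 9 that was higher in C3. The shares higher in C2 and in C3 were 33.3% and 11.1%, beside 11.8% and 8.8% of all genes. The share higher in C3 was thus near that of all genes.

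More digestive and detoxifying genes were higher in C2 than in C3, beside 11.8% and 8.8% of all genes. Of 34 measured cytochrome P450 genes of the list 23 were higher in C2 and none in C3 (median log2 ratio 1.33). Cyp4p2 stood at 74.3 CPM in C2 and between 0.132 and 0.954 in the other 5 libraries, so that C2 alone was high. Of 30 glutathione transferases 10 were higher in C2 and 1, GstT4, in C3; GstE10 had the largest ratio (log2 4.68). Of 37 digestive genes of the midgut 19 were higher in C2 and 5 in C3. The lysozyme gene LysB stood at 51.6 CPM in C2 and 0.527 in C3, with 48.3 in C1 but 2.71 in the control, and the trypsin gene epsilonTry at 199 and 13.7 CPM. The maltase genes Mal-A7 and Mal-A8, Jon44E, Jon65Ai and Amyrel were higher in C3.

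Of 8 measured genes of the peritrophic matrix that lines the gut, 5 were higher in C2 and 1 in C3 (median log2 ratio 2.38), beside 11.8% and 8.8% of all genes. Muc68E, a mucin and the gene higher in C3, stood at 1.62 CPM in C2 and 325 in C3, with 103 in the control, 386 in C1, 62.1 in C4 and 122 in C5, so that C2 alone was low. Muc96D went the other way, at 460 CPM in C2, 8.93 in C3 and 163 to 227 in the rest, so that C3 alone was low. Of 16 measured genes of the Malpighian tubule 6 were higher in C2, 3 in C3 and 7 within 2-fold (median log2 ratio -0.11). Uro, urate oxidase of the Malpighian tubule, stood at 112 CPM in C2, 1.91 in C3, 19.5 in C1, 9.03 in C5, 1.97 in C4 and 0.619 in the control.

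Immune genes differed by family. PGRP-SB2, a secreted peptidoglycan recognition protein (3L, 16726541 to 16727288), had the lowest ratio of C2 to C3 of all genes of at least 5 CPM. It stood at 0.135 CPM in C2 and 2356 in C3, with 71.04 in the control, 241 in C1, 967 in C4 and 7.08 in C5, a log2 ratio of -14.09 (interval -15.22 to -13.17). Its neighbour PGRP-SB1 stood at 5.57 CPM in C2 and 105 in C3. Drsl5, a drosomycin-like peptide gene, stood at 0.749 CPM in C2 and 873 in C3, with 1228 in the control, 418 in C1, 798 in C4 and 230 in C5. C2 alone was low, whereas for PGRP-SB2 both C2 and C5 were low.

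Of 15 measured antimicrobial genes 8 were higher in C3 and 6 in C2, beside 8.8% and 11.8% of all genes. Their median log2 ratio was -1.17, and 0.11 without the filter on low counts. The cecropin genes CecB (0.150 CPM in C2, 29.2 in C3), CecC (0.719 and 43.4) and CecA1 (1.11 and 13.5) were higher in C3. In C4 they stood at 24.1, 67.99 and 20.4 CPM, and in the control, C1 and C5 at most at 0.663, 2.21 and 2.37. In the opposite direction Dro, drosocin, stood at 19.7 CPM in C2 and 0.448 in C3, and AttA, an attacin, at 10.7 and 1.74, with 182 in C4. AttA and AttB, and the cecropin genes among themselves, are close copies whose reads may be split between them. Of 26 recognition and pathway genes of the Imd and Toll pathways 7 were higher in C3 and 3 in C2, the latter all amidases of the PGRP-SC group. Those higher in C3 included the receptor gene PGRP-LC (39.2 and 151 CPM), PGRP-LF, pirk (34.4 and 144) and the factor gene Rel (201 and 423). The shares were 26.9% and 11.5%, beside 8.8% and 11.8% of all genes, so that the share higher in C2 was near that of all genes.

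Some genes of the protease, cell death and autophagy lists were higher in C3. Mmp1, a matrix metalloprotease, stood at 107 CPM in C2 and 953 in C3, with 321 in the control, 681 in C1, 245 in C4 and 447 in C5. Of 10 genes of the matrix and lysosomal protease list 5 were higher in C3 and none in C2 (median log2 ratio -0.91), beside 8.8% and 11.8% of all genes. The list also holds Timp, a metalloprotease inhibitor gene, which was within 2-fold (28.3 CPM in C2, 14.5 in C3). Dronc, the initiator caspase gene, stood at 47.3 CPM in C2 and 280 in C3, and rpr (reaper), a death inducer, at 5.09 and 30.8. The cell death list joins inducers, caspases and inhibitors. Of its 16 genes 5 were higher in C3 (Dronc, rpr, Strica, hid and Buffy) and 1, Damm, in C2 (31.2% and 6.25%). Of 18 autophagy genes 4 were higher in C3 (Atg13, Atg7, Atg4b and Atg5) and 1 in C2 (Atg9), or 22.2% and 5.56%. Over all genes the shares were 8.8% and 11.8%. Most members of these lists were within 2-fold, 10 of 16 and 13 of 18.

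In several lists most or all genes were not called. None of 29 cell cycle genes was called in either direction, with a median log2 ratio of 0.01 and a range from -0.49 to 0.56. Of 19 genes of the imaginal discs 1, Dr, was higher in C3 (5.26%) and none in C2, although 16 had a ratio below 1. Of 16 neuronal and glial genes 3 (18.8%) were higher in C2 and none in C3, and 14 had a ratio above 1. Over all genes 11.8% were higher in C2 and 8.8% in C3. The neuronal gene elav stood at 67.9 CPM in C2 and 66.5 in C3. By symbol, 85 of 86 cytosolic ribosomal protein genes, all 73 mitochondrial ribosomal protein genes and 32 of 33 proteasome subunit genes were not called in either direction.

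**Figure D5:**
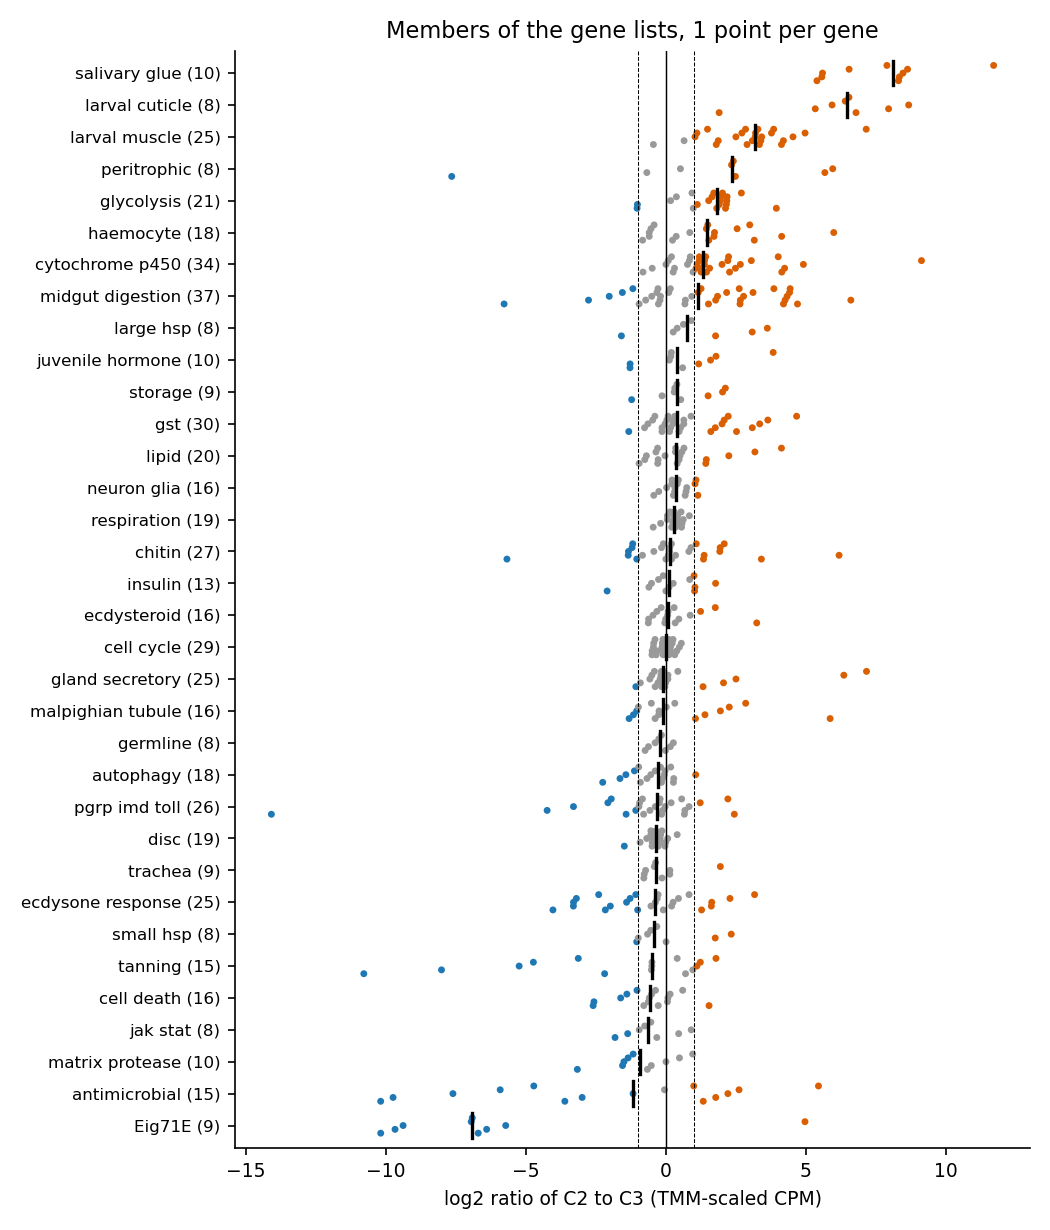
Log2 ratio of C2 to C3 of each measured member of the lists with at least 8 measured genes, ordered by the median (black bar), with the number measured in brackets. Orange and blue points lie at least 2-fold towards C2 and C3. The glue, larval cuticle and muscle lists stand farthest towards C2 and the Eig71E list towards C3, and these 4 were used to choose the pair.

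Genes with the most extreme ratios were mostly without a name. Among genes of at least 5 CPM the 15 highest ratios of C2 to C3 belonged to ng3, CG32198, CG17362, CG11300, CG13460, CG17134, Cpr65Aw, CG13947, Cyp4p2, CG14265, CG17107, CG8087, Muc68Ca, Lcp3 and nol. CG32198 stood at 686 CPM in C2, 0.264 in C3 and 5.73 to 26.6 in the rest, and CG13460 at 403 CPM in C2, 0.356 in C3 and 68.2 to 99.6 in the rest. So the first was high in C2 alone, while the second was low in C3 alone. The 15 lowest ratios were those of PGRP-SB2, CG32762, CG2070, CG34206, CG34193, CG14664, CG5697, CG14062, CG7924, CG34244, lncRNA:CR33948, e, Drsl5, Eig71Eb and CG45081. CG32762 stood at 0.0599 CPM in C2, 933 in C3, 439 in C4 and no more than 1.47 elsewhere. CG2070 stood at 0.0749 CPM in C2 and 285 in C3, with 67.4 in the control, 59.8 in C1, 48.9 in C4 and 0.187 in C5.

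Most genes at least 8-fold higher in C3 fell into patterns by the level of the other libraries. Of 142 such genes 95 (66.9%) stood at 10% or more of their C3 level in both the control and C1, and ple and e were among them. Another 18 stood at 5% or less of C3 in the control, C1 and C5. In 10 of the 18, C4 reached at least 50% of C3: Eig71Ea, Eb, Ec, Ed, Ef, Eh and Ei, CecB, CG33998 and CG45081. In the other 8, C4 lay between: CG32762, CG4151, CG13026, CG42717, CG43082, CG13031, lncRNA:CR44898 and CG9701. The remaining 29 genes (20.4%) had neither pattern, among them PGRP-SB2, CecC, CecA1 and Eig71Eg. With C4 left out, the order from lowest to highest was C2, C5, control, C1 and C3 for 61 of the 142 (43.0%). The choice of these genes placed C3 above C2 in advance. The same count was not made for the genes higher in C2, so this share does not test a graded order.

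Over all called genes the other libraries often lay between the pair. Of the 1181 genes higher in C2, C2 was the highest of the 6 libraries for 922 and C3 the lowest for 874, and all other 4 libraries lay between them for 665 (56.3%). Of the 880 higher in C3, C3 was the highest for 665 and C2 the lowest for 579, and the other 4 lay between for 437 (49.7%). C1 lay between C2 and C3 for 88.7% of the genes higher in C2 and 83.0% of those higher in C3. The pair was chosen as the ends of several gene groups, so that such placement is partly fixed by the choice.

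Some called genes lay in runs along the chromosomes, and whether there were more runs than by chance was not tested. There were 29 runs of at least 4 neighbouring measured protein-coding genes all higher in C2, holding 154 of the 1181 genes higher in C2. Another 10 runs, all higher in C3, held 43 of the 880 genes higher in C3. The longest held 10 genes on 2R (18390353 to 18408955), from BomS6 and Idgf5 through GstE10, GstE1, GstE2, GstE3, GstE5, GstE6 and GstE7 to GstE8, with a median log2 ratio of 2.38. CG14265, ng2, ng3, ng1, Pig1 and Sgs4 formed a run on X (3236130 to 3251040) with a median of 8.40, and l(3)mbn, Cpr65Au, Cpr65Av, Cpr65Aw, Lcp65Ad, Lcp65Ac and Lcp65Aa one on 3L with a median of 6.41. Towards C3, a run of CG13026, CG13031, PGRP-SB2 and PGRP-SB1 on 3L (16724678 to 16727989) had a median of -8.07. Several of these runs are families of related genes, and CG13031 lies inside CG13026, so neighbours do not count as independent.

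The share called differed by chromosome and by level. It was 22.0% on 2L, 21.9% on 2R, 22.2% on 3L, 20.4% on 3R, 16.5% on X and 7.23% on chromosome 4 (6 of 83 genes). By level it was 34.6% for genes with a mean of 1 to 5 CPM, 15.7% at 20 to 100 CPM and 27.0% at 1000 CPM or more.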

How the data were processed

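Per the labels, RNA of whole larvae was sequenced as paired-end reads from a stranded, ribosomal-RNA-depleted library. TopHat, Partek, bcl2fastq and dm6 are named in the submitters' processing notes, without versions or roles. For each library the authors deposited expected counts (estimated reads per RefSeq transcript) and RPKM values for 34966 transcripts. Counts of 1000000 or more were deposited with 3 significant digits.

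Of the transcripts, 32991 (94.4%) matched a gene of the Release 6 annotation, and their counts were summed over 16185 genes and rounded. The unmatched transcripts held 0.148% to 0.214% of a library's counts. TMM factors over the 6 libraries came from edgeR 4.0.16 (R 4.3.3, limma 3.58.1). A gene was measured at a mean of at least 1 CPM over C2 and C3. It was called at a fold of at least 2 with an exact 95% Clopper-Pearson interval (scipy 1.17.1) excluding 1, and fewer than 3 counts were set to 3 for the fold. No count model could be fitted to 1 library per group.

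Isoforms of listed ecdysone genes with at least 50 counts in both libraries were named where the length implied by count and RPKM lay within 0.2% of an annotated transcript. That held for 99.8% of 3750 genes with 1 isoform, which does not test whether isoforms of the same gene were told apart. Members and the 40 gene lists were chosen with earlier results of these data known. Named were all glue, Eig71E, larval cuticle and ecdysone genes, up to 5 members of every other list, the 15 highest and 15 lowest ratios at a mean of at least 5 CPM, the 10 largest RPKM differences in each direction and genes in runs. Others, such as t, Ddc, elav, Rel, AttA, Treh, Hex-C, Cpr97Ea, epsilonTry, CG43083 and the families by symbol, were chosen after their values were seen.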

Additional observations from a re-analysis of the deposited data

How the results depend on the processing

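The 4 counts and 40 list medians were recomputed with DESeq2 1.42.0 size factors, TMM on the pair alone, no low-count filter, plain CPM, a mean of at least 5 CPM, and a mean of at least 1 CPM over the 6 libraries. The counts were also taken over transcripts as deposited. Without a filter 1788 genes were higher in C2 in place of 1181, since more genes were counted. Over transcripts 3039 were higher in C2, 2637 higher in C3 and 1112 at least 8-fold apart, in place of 1181, 880 and 490. No other count left 1.5 times its value. The antimicrobial median turned from -1.17 to 0.11 without a filter, when low genes entered, and the Tweedle median from -1.20 to 0.60 without a filter and 0.25 with the filter over the 6 libraries. Without reversal, 20 further values of 12 lists moved, and 27 lists did neither. At a mean of at least 5 CPM the antimicrobial median was -3.30. At that filter the adult muscle list kept only TpnC25D, whose 4.50 replaced the median of 2.16. The male germline list kept only bol, whose 2.01 replaced the median of -0.05, so neither value describes its list. Plain CPM lowered every ratio by 0.17 and moved the share of called genes that were higher in C2 from 57.3% to 48.8%. Of 308 named genes 15 changed their call under plain CPM, and none changed direction. Among the 15 were Atg9 and the 3 neuronal genes counted above as higher in C2 (Gad1, Rdl and para). The genes t (log2 ratio 1.11) and CrebA (-0.91) were not among the 308. The shift of 0.17 takes t to within 2-fold and CrebA past 2-fold towards C3. No paired analysis was possible because each genotype had 1 library, and the replicate number only names it. For the same reason no replicate could be left out. Genes under 1 CPM, such as Eig71Ej and Eig71Ek, were too shallow for a statement.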
